A study of Canis lupus familiaris with 29 samples.

Results

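The genes described here are transcription factors of the sympathoadrenal lineage, the neural crest lineage that gives rise to chromaffin cells and sympathetic neurons. The list was PHOX2A, HAND1, HAND2, GATA2, GATA3, ISL1, INSM1 and TFAP2B, and its members were taken by gene name from a table of 30951 canine Ensembl genes. The table held 7 of the 8 under those names, and INSM1 was not analysed here. All 7 passed the filter on low counts in every comparison.

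RNA sequencing compared canine pheochromocytomas and paragangliomas (PPGLs), tumors of chromaffin cells, with normal adrenal medulla (NAM). There were 10 NAMs, 7 tumors labelled PPGL group 1 and 12 tumors labelled PPGL group 2. The study drew the tumor groups from a principal component analysis of these same samples, so p-values between them describe that split. NAMs came from healthy research dogs and tumors from client-owned dogs, so origin and tissue cannot be told apart. No age or genotype of single dogs was used here.

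Total counts ranged from 18208718 to 35918182 per sample. Levels are given as CPM (counts per 1e6 counts of the sample) after TMM normalization, which scales samples to a common bulk of genes, and 3 counts came to between 0.0779 and 0.175 CPM. This floor covers counting error only.

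Some samples stood apart in some of the genes that define chromaffin cells. TH, the first enzyme of catecholamine synthesis, was at 10.7 CPM in group 1 replicate 3, 2.15 CPM in group 1 replicate 5 and 32.3 CPM in group 2 replicate 7, against 1056 to 5968 CPM in NAMs. DDC was at 0.285 and 0.358 CPM in group 1 replicates 3 and 5, and CHGB was at 27.1 CPM in group 1 replicate 7. PNMT was below every NAM in each of these tumors. Other such genes were not low: SYP was at 594 and 627 CPM in group 1 replicates 3 and 5, where the highest NAM had 417. CHGB lay within the NAM range there (13080 and 6822 CPM), and DBH below it (2557 and 2164 CPM). DBH, DDC and SYP lay within the NAM range in group 2 replicate 7 and group 1 replicate 7, as did CHGB in the former and TH in the latter. In group 1 replicates 3 and 5, PHOX2A was at 909 and 586 CPM and HAND2 at 490 and 396 CPM.

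In development, PHOX2A, the HAND basic helix-loop-helix proteins, GATA2, GATA3, ISL1, INSM1 and TFAP2B act in a mutually reinforcing network in neural crest cells exposed to BMP signals near the dorsal aorta. The network switches on the enzymes of catecholamine synthesis and supports the survival and differentiation of sympathetic and chromaffin precursors. Several of these factors stay on in the adult medulla.

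A gene was called different from NAMs at an adjusted p below 0.05, and different between tumor groups at an adjusted p below 0.1, in edgeR quasi-likelihood tests with Benjamini-Hochberg adjustment over all genes tested. In PPGLs against NAMs, PHOX2A, HAND1, HAND2 and GATA2 were called higher and none of the 7 was called lower. That is 4 of 7, where 37.5% of 14766 genes were called and 22.3% were called higher. The members' median log2 fold change was 1.41, beside 0.13 for all genes tested.

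The separate comparisons of group 1 and group 2 with NAMs share the 10 NAMs and 1 fit. In group 1, PHOX2A, HAND1, HAND2 and GATA2 were called higher, 4 of 7, where 35.1% of 15201 genes were called and 21.0% were called higher. In group 2, the same 4 factors were called higher and ISL1 was called lower, where 32.9% of genes were called, 18.4% higher and 14.5% lower. The members' median log2 fold change was 2.12 in group 1 and 0.94 in group 2, beside 0.13 and 0.09 for all genes.

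Between the tumor groups, HAND2 and ISL1 were called higher in group 1, 2 of 7, where 6.92% of 14666 genes were called and 3.97% were called higher. The members' median log2 fold change was 0.95, beside 0.04 for all genes. The number of genes called was 1015 with all 19 tumors, 525 without group 1 replicate 7 and 674 without group 2 replicate 4. The number of members called was 1 without group 1 replicate 3, 4 or 7, when HAND2 was no longer called, and 3 without group 1 replicate 5, when GATA3 was added. Over all 19 fits without 1 tumor, the number of genes called itself ran from 525 to 1218.

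**Figure D1:**
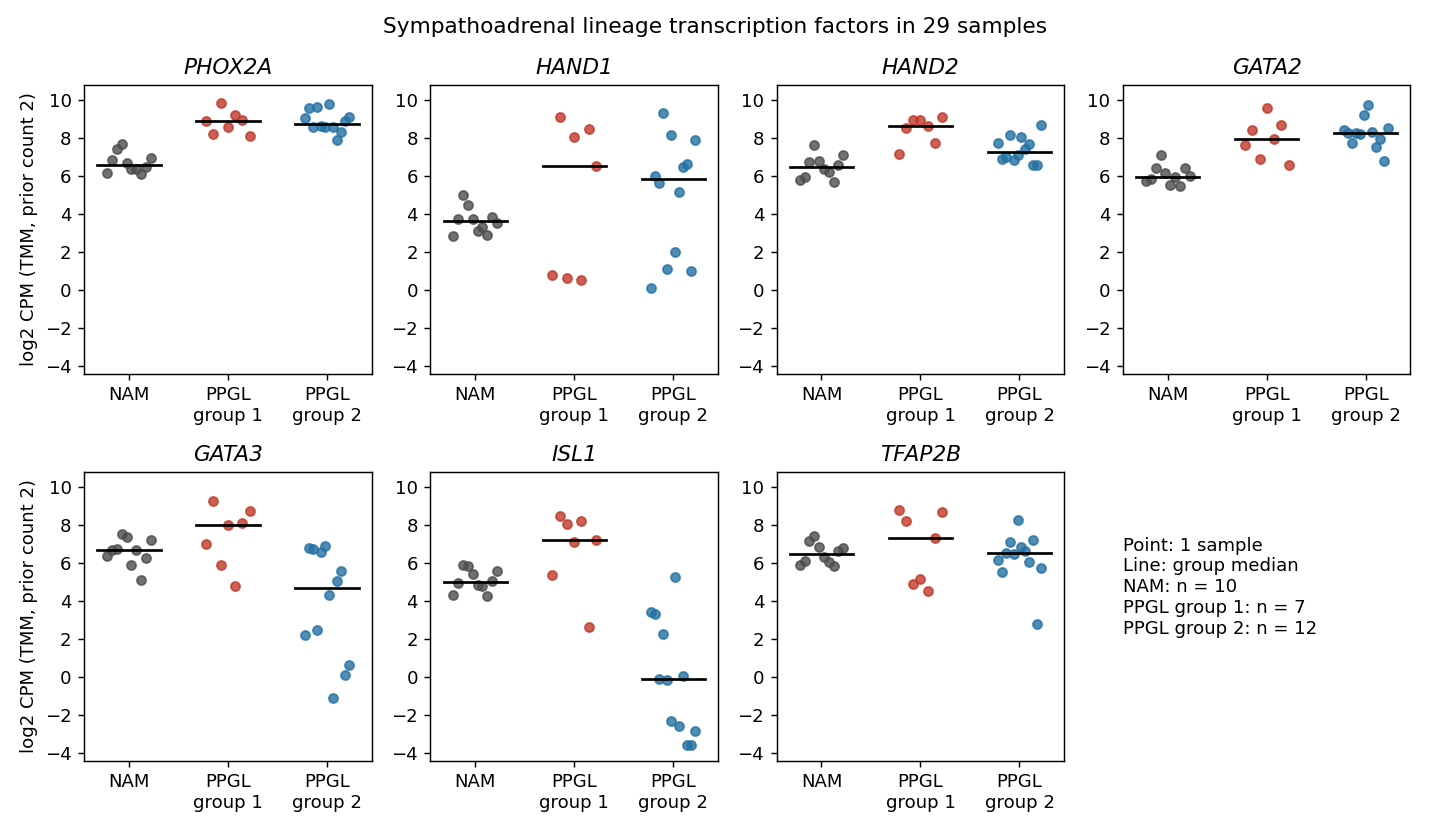
Level of each factor (log2 TMM-normalized CPM, prior count 2) in NAMs (10) and in the tumors of group 1 (7) and group 2 (12), with 1 point per sample and a line at the group median. All 19 tumors lie above all 10 NAMs for PHOX2A, tumors lie on both sides of the NAMs for HAND1, and 11 of 12 group 2 tumors lie below every NAM for ISL1.

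PHOX2A encodes a paired-like homeodomain protein that activates the promoters of catecholamine enzyme genes. It is ENSCAFG00000005726 on the plus strand of chromosome 21, 25892321 to 25900351 in CanFam3.1, with 2405 bases of exon. PHOX2A was at 70.1 CPM in the lowest NAM, 98.0 at the NAM median and 206 in the highest. The lowest, median and highest in group 1 were 275, 470 and 909 CPM, and in group 2 they were 243, 439 and 898 CPM. All 19 tumors were above every NAM, and the tumor groups overlapped almost completely. PHOX2A was the only member of the 7 with that separation, which 0.223% of genes tested showed for all PPGLs, 2.11% for group 1 and 0.987% for group 2.

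The log2 fold change of PHOX2A in PPGLs against NAMs was 2.17 (SE 0.24, adjusted p = 1.75e-07). In group 1 it was 2.12 (SE 0.27, adjusted p = 1.95e-06), with 7 of 7 tumors above every NAM. With the adrenal cortex marker level as a covariate the group 1 value was 1.20 and was not called. In group 2 it was 2.19 (SE 0.25, adjusted p = 9.89e-07), with 12 of 12 above every NAM. Group 1 minus group 2 came to -0.06 (SE 0.27, adjusted p = 0.927), with 1 group 2 tumor below every group 1 tumor. That small difference turned positive without group 1 replicate 2 (0.03) or 7 (0.05), or without group 2 replicate 2 (0.003), 4 (0.015) or 7 (0.04). The direction of PHOX2A between the tumor groups was therefore not fixed when single tumors were left out. It was 1.55 and called when samples were scaled to their chromaffin markers in place of TMM, but that scale moved the median of all genes by 1.61 between the groups, which is as far as PHOX2A moved.

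HAND1 and HAND2 encode related basic helix-loop-helix proteins. HAND2 is needed for noradrenergic differentiation of sympathetic precursors, and HAND1 is best known from heart, placenta and sympathetic ganglia. HAND1 is ENSCAFG00000017641 on the plus strand of chromosome 4, 55231481 to 55234265, with 1188 bases of exon. HAND2 is ENSCAFG00000007858 on the minus strand of chromosome 25, 24141243 to 24152958, with 811 bases.

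HAND1 was at 7.17, 12.3 and 32.5 CPM in the lowest, median and highest NAM. The same values were 1.37, 92.6 and 562 CPM in group 1 and 1.01, 57.4 and 639.5 CPM in group 2. The tumors left the NAM range empty: 12 of 19 were above every NAM, from 35.7 CPM upward, and 7 were below every NAM, at 3.99 CPM or less. Both kinds occurred in both groups, with 4 tumors above and 3 below in group 1, and 8 above and 4 below in group 2.

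Low HAND1 was seen in group 1 replicates 1, 3 and 5 and in group 2 replicates 1, 5, 7 and 11. HAND1 was still counted in each of them, with at least 24 counts in every sample. The log2 fold change of HAND1, an average over both kinds of tumor, was 3.40 in PPGLs (SE 0.97, adjusted p = 0.00667, 12 of 19 above every NAM). It was 3.71 in group 1 (SE 1.08, adjusted p = 0.00834, 4 of 7) and 3.17 in group 2 (SE 1.00, adjusted p = 0.0153, 8 of 12). The Mann-Whitney U-test, which uses ranks, called HAND1 in none of these 3 comparisons. With the adrenal cortex marker level as a covariate HAND1 was not called in PPGLs (3.45) or in group 1 (8.15). Group 1 minus group 2 was 0.56 (SE 1.16, adjusted p = 0.838), and -0.05 without group 1 replicate 2, the highest of group 1.

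HAND2 was at 51.8, 89.1 and 198 CPM in the lowest, median and highest NAM. Group 1 had 143, 396 and 551 CPM, and group 2 had 95.0, 157 and 407 CPM. Group 1 held 6 of 7 tumors above every NAM and group 2 held 5 of 12, and no tumor was below every NAM. The groups overlapped: 6 of 12 group 2 tumors were below every group 1 tumor, and 3 of 7 group 1 tumors were above every group 2 tumor.

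The log2 fold change of HAND2 was 1.41 in PPGLs (SE 0.31, adjusted p = 0.000804, 11 of 19 above every NAM). It was 1.955 in group 1 (SE 0.31, adjusted p = 2.75e-05, 6 of 7 above every NAM) and 0.94 in group 2 (SE 0.28, adjusted p = 0.0103, 5 of 12). On the scale set by the chromaffin markers the group 2 value was 0.58 and was not called, where the median of all genes moved by -0.47. With the adrenal cortex marker level as a covariate HAND2 was at 0.46 in PPGLs, 0.84 in group 1 and 0.54 in group 2, at 0.62 between the groups, and was called in none of these. The difference between the groups was 1.02 (SE 0.30, adjusted p = 0.0638). That call was lost without group 1 replicate 3 (0.95), replicate 4 (0.945) or replicate 7 (0.92), without replicates 3 and 5 together (0.91, a pair chosen after seeing the data), and with the Mann-Whitney U-test.

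GATA2 and GATA3 encode zinc finger proteins of the GATA family. GATA3 is required for the sympathoadrenal lineage and for TH expression, and GATA2 is known from sympathetic precursors and from blood stem cells. GATA2 is ENSCAFG00000004143 on the minus strand of chromosome 20, 2473912 to 2480991, with 1698 bases of exon. GATA3 is ENSCAFG00000005019 on the minus strand of chromosome 2, 28069051 to 28087760, with 2291 bases.

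GATA2 was at 43.9, 62.9 and 136 CPM in the lowest, median and highest NAM. Tumors of group 1 had 96.2, 251 and 781 CPM, and tumors of group 2 had 113, 304 and 868 CPM. Most tumors were high: 5 of 7 in group 1 and 11 of 12 in group 2 were above every NAM, and the other 3 lay within the NAM range. The log2 fold change was 2.24 in PPGLs (SE 0.32, adjusted p = 5.84e-06), 2.14 in group 1 (SE 0.36, adjusted p = 5.38e-05) and 2.28 in group 2 (SE 0.34, adjusted p = 1.85e-05). With the adrenal cortex marker level as a covariate the group 1 value was 1.76 and was not called.

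For GATA2 the difference between the groups was -0.13 (SE 0.39, adjusted p = 0.892), and no group 2 tumor was below every group 1 tumor. The sign turned without group 1 replicate 3 (0.02) or 7 (0.02), without group 2 replicate 7 (0.08), and without group 1 replicates 3 and 5 (0.075). On the chromaffin marker scale it was 0.90 and not called, less than the move of 1.61 in the median of all genes would give.

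GATA3 was at 34.0, 102 and 184 CPM in the lowest, median and highest NAM. The same values were 27.3, 254 and 618 CPM in group 1 and, in group 2, 0.376, 26.9 and 119 CPM. In group 1, 4 of 7 tumors were above every NAM and 1, replicate 5, was below. In group 2 no tumor was above every NAM, 7 of 12 were below, and 1 of them, replicate 8, was under 1 CPM. Here 6 of 12 group 2 tumors were below every group 1 tumor and 5 of 7 group 1 tumors were above every group 2 tumor.

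None of the 4 comparisons called GATA3, although its values spread far. The log2 fold change was 0.21 in PPGLs (SE 0.72, adjusted p = 0.846), and it was -0.16 without group 1 replicate 2 and -0.001 without group 1 replicate 7. With the adrenal cortex marker level as a covariate it was -1.84, and with the sample number as a replicate block -0.46, both not called. The log2 fold change against NAMs was 1.26 in group 1 (SE 0.77, adjusted p = 0.211) and -1.23 in group 2 (SE 0.68, adjusted p = 0.163). The difference between the groups was 2.48 (SE 0.87, adjusted p = 0.116). That difference was called without group 1 replicate 5 (2.67), without replicates 3 and 5 (2.89), with the DESeq2 Wald test (2.49), within the 3-group fit (2.49) and on the chromaffin marker scale (4.46, where the median of all genes moved by 1.61). The group 1 value against NAMs was called when only those 2 groups were fitted (1.27).

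ISL1 encodes a LIM homeodomain protein that sympathetic neuroblasts need to survive and to differentiate. It is ENSCAFG00000018449 on the minus strand of chromosome 4, 63637443 to 63648183, with 2120 bases of exon. ISL1 was at 18.7, 31.8 and 59.9 CPM in the lowest, median and highest NAM. They were 6.12, 149.5 and 352 CPM in group 1 and, in group 2, 0, 0.836 and 38.6 CPM. The groups went opposite ways from the NAMs: 5 of 7 group 1 tumors were above every NAM, and 11 of 12 group 2 tumors were below every NAM.

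The exceptions in group 1 were replicate 6, below every NAM, and replicate 1, which at 40.4 CPM lay within the NAM range. The exception in group 2 was replicate 7, at 38.6 CPM within the NAM range. In group 2, 8 of 12 tumors were under 1 CPM, 5 were at 3 counts or fewer and 2 of these had 0 counts. At this depth ISL1 was not detectable above the floor in those 5. Of the group 2 tumors, 9 were below every group 1 tumor, and 6 of 7 group 1 tumors were above every group 2 tumor.

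Group 1 minus group 2 for ISL1 was 5.02 on the log2 scale (SE 1.15, adjusted p = 0.0244). Leaving out single tumors gave 4.76 to 6.14, and all of these were called. With the adrenal cortex marker level as a covariate it was 3.04 and was not called. Against NAMs the log2 fold change was -2.72 in group 2 (SE 0.84, adjusted p = 0.0138). It was 2.28 in group 1 (SE 0.93, adjusted p = 0.0557), not called, and it was called without group 1 replicate 1 (2.46) or replicate 6 (2.50), and when only those 2 groups were fitted (2.30). In all PPGLs against NAMs it was 0.92 (SE 1.06, adjusted p = 0.519, 5 of 19 above and 12 of 19 below every NAM). The equal-weight mean of the 2 tumor groups against NAMs was -0.22. With the cortex marker level as a covariate the value in PPGLs was -4.99 and was called lower, so the joined value has no fixed sign. Under that covariate the group 1 value turned to -1.40 and was not called. In bulk samples like these, fewer cells with ISL1 and less ISL1 RNA per cell cannot be told apart, and the same holds for the other factors.

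TFAP2B encodes an AP-2 family protein that neural crest cells use and that activates catecholamine enzyme genes. It is ENSCAFG00000002156 on the plus strand of chromosome 12, 18544446 to 18572902, with 3104 bases of exon. TFAP2B was at 56.4, 89.1 and 172 CPM in the lowest, median and highest NAM. In group 1 the values were 22.7, 158 and 439 CPM, and in group 2 they were 6.87, 90.4 and 312 CPM. Tumors fell on both sides: 3 of 7 above and 3 of 7 below every NAM in group 1, and 1 of 12 above and 3 of 12 below in group 2.

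TFAP2B was not called in any comparison. Its log2 fold change was 0.52 in PPGLs (SE 0.45, adjusted p = 0.384), 1.03 in group 1 (SE 0.53, adjusted p = 0.13) and 0.09 in group 2 (SE 0.46, adjusted p = 0.905). Between the groups the difference was 0.95 (SE 0.58, adjusted p = 0.386). Without group 1 replicates 3 and 5, which were among its lowest 3 group 1 tumors, the group 1 value against NAMs was 1.46 and was called. The group 2 value turned negative without group 2 replicate 6 (-0.21). It was -0.31 on the chromaffin marker scale, where the median of all genes moved by -0.47. On that scale the group 1 values of TFAP2B against NAMs (2.53) and against group 2 (2.84) were both called, but the median of all genes moved by 1.15 and 1.61, and 8803 of 15201 and 11576 of 14666 genes were called.

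The factors differed in how evenly tumors carried them. The standard deviation of log2 CPM over the 19 tumors was 0.56 for PHOX2A, 0.84 for HAND2 and 0.86 for GATA2, beside a median of 0.66 over 14766 genes. It was 1.52 for TFAP2B, 3.01 for GATA3, 3.37 for HAND1 and 4.29 for ISL1. A larger standard deviation was found in 0.718% of genes for GATA3, 0.291% for HAND1 and 0.0474% for ISL1, against 60.4% for PHOX2A. In NAMs the 7 standard deviations lay between 0.49 (GATA2) and 0.73 (GATA3), where the median gene had 0.37.

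Seen tumor by tumor, group 1 tumors had 3 to 7 of the 7 factors above every NAM, with a median of 5, and 0 to 3 below. Group 2 tumors had 1 to 4 above, with a median of 3, and 1 to 4 below. How many of all genes lay outside the NAM range in each single tumor was not counted. These numbers, and the sets of low factors given next, therefore describe the 7 factors without a background. Group 1 replicate 2 was above every NAM for all 7 factors, and it and group 1 replicate 7 were the 2 tumors with none below. At the other end, group 2 replicate 11 had only PHOX2A above every NAM, with HAND1, GATA3, ISL1 and TFAP2B below.

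Low values of HAND1, GATA3, ISL1 and TFAP2B came together in some tumors and alone in others. In group 2, 6 of 12 tumors had both GATA3 and ISL1 below every NAM, 5 had ISL1 alone of this pair and 1, replicate 7, had GATA3 alone. In group 1, no tumor had both of these below. HAND1 was below together with TFAP2B in 2 of 7 group 1 tumors and 1 of 12 group 2 tumors. The sets seen below every NAM in more than 1 tumor were ISL1 alone (1 of group 1 and 3 of group 2) and GATA3 with ISL1 and no other (3 of group 2).

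**Figure D2:**
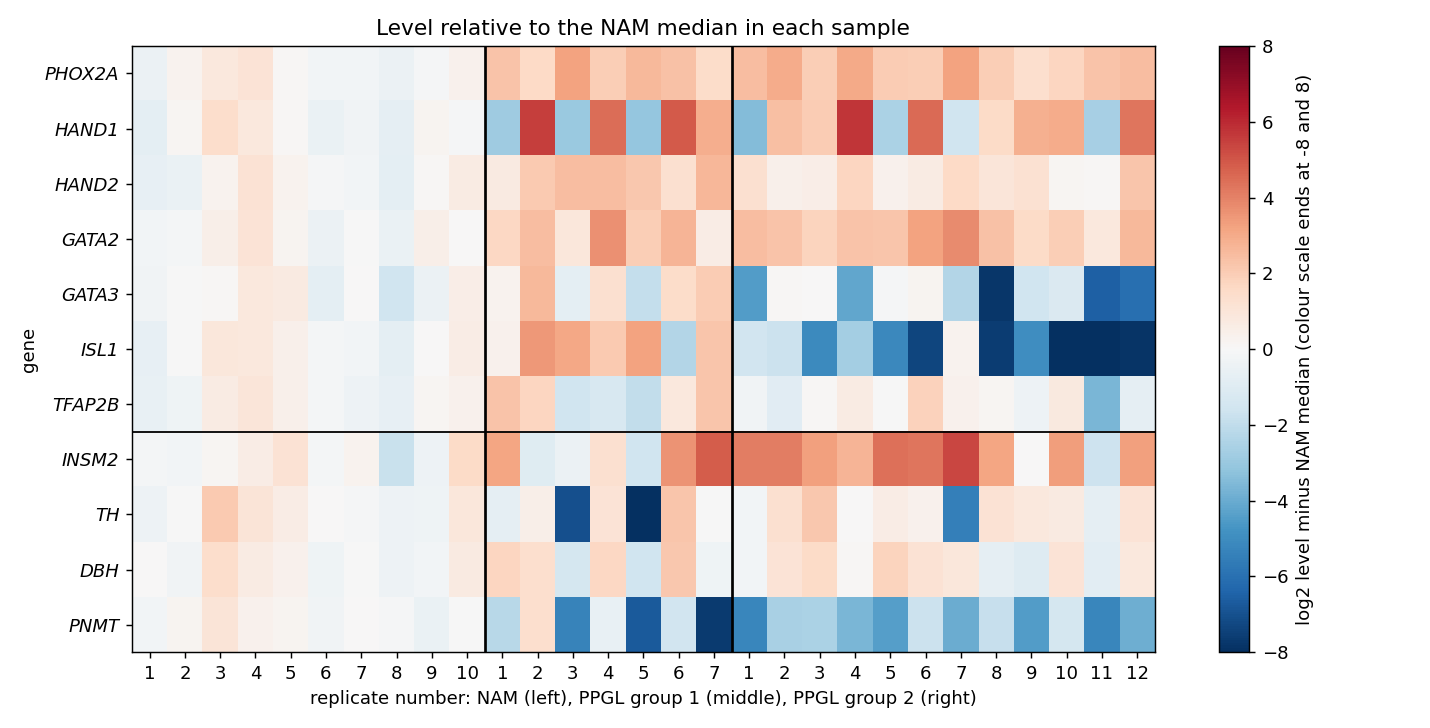
Log2 level minus the NAM median for the 7 factors (above the line) and for 4 further genes, INSM2, TH, DBH and PNMT, in each of 29 samples ordered by group and replicate, with red for higher and blue for lower and a colour scale that ends at -8 and 8. PHOX2A is above the NAM median in all 19 tumors, and ISL1 is blue in 11 of 12 tumors of group 2.

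Levels can be set against each other between genes only per kilobase of exon. In NAMs the median CPM per kb ran from HAND2 (110) through GATA3 (44.6), PHOX2A (40.7), GATA2 (37.1) and TFAP2B (28.7) to ISL1 and, lowest, HAND1 (10.4). The ranges of neighbours in that order overlapped. For group 1 the order was HAND2 (489), PHOX2A (195), GATA2 (148), GATA3 (111), HAND1 (78.0), ISL1 (70.5) and TFAP2B (50.9). In group 2 it was HAND2 (193), PHOX2A (182), GATA2 (179), HAND1 (48.3), TFAP2B (29.1), GATA3 (11.7) and ISL1 (0.394). HAND2 thus had the highest median per kb of the 7 factors in each group, while ISL1 and GATA3 took the last places in group 2.

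Per kb, HAND2 exceeded HAND1 in 10 of 10 NAMs, with ratios of 4.76 to 17.9. That order held in 5 of 7 tumors of group 1 and 10 of 12 of group 2, with ratios from 0.865 to 487 and from 0.657 to 316. GATA2 exceeded GATA3 per kb in 4 of 10 NAMs, where the ratio stayed between 0.581 and 1.74. It exceeded GATA3 in 5 of 7 group 1 tumors and in all 12 group 2 tumors, whose ratios were 2.76 to 1137. Within the GATA pair, near-equal levels in NAMs thus gave way to a surplus of GATA2 in every group 2 tumor.

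In the 10 NAMs the levels of the 7 factors went together. All 21 pairs had a positive Pearson r of log2 CPM, from 0.57 (HAND1 with GATA3) to 0.95 (ISL1 with TFAP2B), and a median of 0.82, with Spearman rho from 0.56 to 0.96. These correlations are descriptions over samples that also share their tissue composition. Each factor was also positively correlated with the mean log2 level of the chromaffin markers in NAMs, from r = 0.64 for GATA2 to r = 0.92 for ISL1, and inversely with that of the adrenal cortex markers, from r = -0.64 for HAND1 to r = -0.91 for GATA3.

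In the tumors that common course was not seen. Within group 2 (n = 12) the pairwise r of the factors ran from -0.40 to 0.67 with a median of 0.26, and 16 of 21 were positive. Within group 1 (n = 7) it ran from -0.81 to 0.88 with a median of -0.14, and 8 of 21 were positive. In group 1, PHOX2A was inversely related to GATA3 (r = -0.81, rho = -0.82), and HAND1 was high where GATA3 was high (r = 0.88, rho = 0.89). In group 2 the same pairs gave r = -0.16 (rho = -0.18) and 0.14 (rho = 0.31).

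Over all 19 tumors HAND2 and ISL1 had r = 0.69 and rho = 0.68, and r = 0.62 without the 2 tumors farthest from the HAND2 median. Within the groups r was 0.70 with rho 0.29 in group 1 and 0.34 with rho 0.47 in group 2. GATA3 and ISL1 had r = 0.55 (rho = 0.51) over all tumors, and -0.21 (rho = 0) in group 1 and 0.26 (rho = 0.22) in group 2. How far the distance between the groups enters the pooled values was not tested.

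For each factor, the 3 named genes with the highest r over the 19 tumors were taken from 12749 genes with a name. For PHOX2A these were HPSE2 (r = 0.83), TRIM3 (0.78) and ARFIP2 (0.77), and r with HPSE2 was 0.81 in group 1 (rho = 0.82) and 0.88 in group 2 (rho = 0.89). For HAND1 they were HPGD (0.82), ANKRD33B (0.72) and FUNDC1 (0.67), and r with HPGD was 0.89 in group 1 (rho = 0.86), 0.88 in group 2 (rho = 0.90) and -0.20 in NAMs (rho = -0.07). For HAND2 they included BARHL1 (0.83) and PRPF6 (0.82), and BARHL1 had a median of 22.1 CPM in group 1 and 0.1 CPM in group 2. For GATA2 they were SLC50A1 (0.79), ZBTB7B (0.78) and LDB1 (0.76), and LDB1, an adaptor of LIM and GATA protein complexes, had r = 0.61 in group 1 (rho = 0.64) and 0.91 in group 2 (rho = 0.77).

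For GATA3 the nearest genes were COL22A1 (r = 0.81), MCF2L (0.79) and MTHFSD (0.78), and r with COL22A1 was -0.26 in group 1 (rho = -0.11) and 0.87 in group 2 (rho = 0.90). For ISL1 they were PTN (0.84), PAFAH1B3 (0.83) and SEMA6C (0.81), and r with PTN was 0.40 in group 1 (rho = 0.89) and 0.64 in group 2 (rho = 0.64). PTN, which encodes the growth factor pleiotrophin, had medians of 1.86 CPM in NAMs, 75.5 in group 1 and 3.57 in group 2. For TFAP2B they were ZNF502 (0.84), ZNF146 (0.82) and HIF3A (0.80), and r with ZNF502 was 0.94 in group 1 (rho = 0.89) and 0.78 in group 2 (rho = 0.77). Being highest of 12749, these r values are high by selection.

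No gene of the table overlapped a member, and the genes within 50 kb were examined for each. INPPL1 lies 549 bases from PHOX2A on the other strand and was not called, with a log2 fold change of 0.10 in PPGLs (adjusted p = 0.653) and medians of 136, 126 and 157 CPM in NAMs, group 1 and group 2. CLPB, 39464 bases from PHOX2A, was called higher at 0.60 (adjusted p = 0.00914), against 2.17 for PHOX2A. Nearest to HAND1, at 1483 bases, a gene without a name was called higher in group 1 (3.62, adjusted p = 0.00237) and in group 2 (2.55, adjusted p = 0.0186), with medians of 0.0387 CPM in NAMs, 0.617 in group 1 and 0.226 in group 2 and r = 0.55 with HAND1. The unnamed gene ENSCAFG00000047147 at 2176 bases had a log2 fold change of 4.06 in PPGLs (adjusted p = 0.00239), with medians of 0.11 CPM in NAMs, 1.19 in group 1 and 0.651 in group 2, and r = 0.70 with HAND1 over the tumors. Also near HAND1, GALNT10 had -0.67 (adjusted p = 0.0375) and SAP30L had 0.63 (adjusted p = 0.057).

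Near HAND2, the unnamed gene ENSCAFG00000044052 at 14980 bases rose by 2.01 in PPGLs (adjusted p = 0.00242), with r = 0.67 with HAND2. Nearest to GATA3, at 4385 bases, a gene without a name was called higher in group 1 (2.63, adjusted p = 0.0429) and lower in group 2 (-2.75, adjusted p = 0.027). It had r = 0.62 with GATA3, and its medians were 0.91, 0.355 and 0.024 CPM in NAMs, group 1 and group 2. The group 1 median was thus below that of NAMs despite the higher call. In PPGLs this gene was not called (1.26, adjusted p = 0.405). TAF3, 34889 bases from GATA3, was not called in PPGLs (-0.02, adjusted p = 0.95). Near GATA2, 2 genes without a name were called higher in PPGLs, at 2.85 and 1.95, and had r = 0.16 and r = 0.02 with GATA2 over the tumors. DNAJB8 near GATA2 and TFAP2D near TFAP2B had medians of 0 CPM in all groups. No gene with a name lay within 50 kb of ISL1.

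The counts called in this and the following lists stand beside the shares of all genes called higher and lower. These were 22.3% and 15.2% in PPGLs, 21.0% and 14.1% in group 1, and 18.4% and 14.5% in group 2. Between the groups they were 3.97% and 2.95%. Closest in family to the members are their paralogs, of which 9 of 11 listed were found. In PPGLs against NAMs 1 of 4 tested paralogs was called higher and none lower, with a median log2 fold change of 0.81, and the same count of 1 of 4 held in group 1 and in group 2. That gene was INSM2, a relative of INSM1, at 3.17 in PPGLs (SE 0.69, adjusted p = 0.000669), with medians of 4.52 CPM in NAMs, 11.2 in group 1 and 46.2 in group 2. Of 3 tested between the tumor groups edgeR called 0. GATA1, GATA4, GATA5, TFAP2D and TFAP2E had medians at or under the floor over the samples, and TFAP2A (0.81, adjusted p = 0.299) was not called. GATA6 and ISL2 were not analysed here.

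Among 27 partners and cofactors found of 30 listed, 25 were tested, and in PPGLs 12 were called higher and 2 lower, with a median log2 fold change of 0.39. Group 1 had counts of 14 and 2, in group 2 they were 11 and 2, and between the groups 2 were higher in group 1 and none lower. RCOR2, a corepressor that works with KDM1A, was at 2.41 in PPGLs (SE 0.47, adjusted p = 0.000222). CITED2, a coactivator of AP-2 proteins, was at 1.36 (SE 0.25, adjusted p = 0.000124), and LMO1, which joins LIM and GATA complexes, was at 1.24 (SE 0.28, adjusted p = 0.00106). SSBP2 was at 1.23 (adjusted p = 7.43e-05), and in group 1 ZFPM2, a cofactor of GATA proteins, was at 1.45 (adjusted p = 0.0233) and TCF4, a dimer partner of HAND proteins, at 1.14 (adjusted p = 0.000482). The lower pair were LMO4 (-1.57, adjusted p = 0.000742) and LDB2 (-1.25, adjusted p = 0.000792). SSBP3, a partner of LDB1, was higher in group 1 than in group 2 (0.62, adjusted p = 0.0299), as was RCOR2 (1.63, adjusted p = 0.0426).

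Of other neural crest and sympathoadrenal transcription factors, 33 of 37 listed were found. In PPGLs 11 of 29 tested were called higher and 5 lower (median 0.53), in group 1 12 of 30 higher and 6 lower, and in group 2 6 higher and 3 lower. Between the groups 1 was higher in group 1 (TLX2) and 4 were lower.

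NEUROD4, a neuronal basic helix-loop-helix factor, had medians of 0.211 CPM in NAMs, 0 in group 1 and 2.94 in group 2, and its difference between groups was -6.15 (SE 1.67, adjusted p = 0.0475). Its counts were 3 or fewer in 6 of 7 group 1 tumors and in 3 of 12 group 2 tumors. TBX3 was lower in PPGLs (-2.98, adjusted p = 1.71e-06), while TBX2 was higher (1.47, adjusted p = 8e-06). Also lower in PPGLs were MEIS2 (-1.99), PBX3 (-1.19) and MSX1 (-1.30), and also called higher were EYA1 (2.03) and EBF2 (1.85). The EYA1 value rested on some tumors, with 7 of 19 above and 3 below every NAM and medians of 0.629 CPM in NAMs, 0.522 in group 1 and 0.596 in group 2. SOX9 was lower in group 1 than in group 2 (-2.14, adjusted p = 0.0968), EBF3 (4.38) was higher in group 1 than in NAMs, and EPAS1 was higher in group 2 than in NAMs (1.21). SOX10 was not called (-0.85, adjusted p = 0.296), and MYCN and SOX11 were not analysed here.

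BMP signalling genes act upstream of the members in development. Of 20 tested of 22 found, 4 were called higher and 5 lower in PPGLs, beside 22.3% and 15.2% of all genes, with a median of -0.10. In group 1 the counts were 4 and 4, in group 2 they were 5 and 4, and of 18 tested between the groups 1 was higher (BMPR1B) and 1 lower (BMP6) in group 1. For BMPR1B 3 of 7 group 1 tumors were above every group 2 tumor, and the medians were 1.14 CPM in group 1 and 0.961 in group 2. BMP6 was at -2.30 in PPGLs (SE 0.42, adjusted p = 0.00013), and BMPR1A, a BMP receptor, was at 0.69 (SE 0.16, adjusted p = 0.00112). GREM1 (2.90), SMAD9 (0.97) and ACVR1 (0.62) were also higher in PPGLs, and BMP7 (-1.89), BAMBI (-1.51) and CHRD (-1.23) were lower. GREM1 was low throughout, with medians of 0.193 CPM in NAMs, 0.266 in group 1 and 0.717 in group 2. Its counts were 3 or fewer in 5 tumors, and 10 tumors were above and 1 below every NAM.

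Catecholamine genes include targets of PHOX2A, HAND2 and GATA3. Their summed level had a median of 11940 CPM in NAMs, 27460 in group 1 and 17430 in group 2, with DBH the most abundant. Of 12 tested, 1 was called higher and 2 lower in PPGLs with a median of 0.09, 1 and 1 in group 1, and 2 and 2 in group 2. Between the groups edgeR called 0 of 12. TH had a log2 fold change of 0.07 in PPGLs (SE 0.63, adjusted p = 0.937) and DBH of 0.57 (SE 0.38, adjusted p = 0.246). PNMT, which makes epinephrine, was lower in PPGLs (-1.94, SE 0.64, adjusted p = 0.0177) with medians of 2340 CPM in NAMs, 508 in group 1 and 169 in group 2. CYB561 was higher in PPGLs (1.15), and DDC was not called (0.22, adjusted p = 0.787).

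HAND1 and TH had r = 0.81 in group 1 (rho = 0.89) and 0.42 in group 2 (rho = 0.29), and GATA3 and TH had r = 0.90 (rho = 0.71) and 0.10 (rho = 0.27). PHOX2A and TH had r = -0.68 (rho = -0.46) and -0.53 (rho = -0.44), and ISL1 and TH had r = -0.55 (rho = -0.50) and -0.50 (rho = -0.19), where NAMs gave r = 0.86 and 0.90. Group 1 replicates 3 and 5 and group 2 replicate 7, the lowest in TH, had PHOX2A at 586 CPM or more and HAND1 below every NAM.

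Of 11 chromaffin markers, 4 were called higher and none lower in PPGLs (median 0.57), 4 in group 1 and 5 in group 2, and edgeR called 0 between the groups. SYP, a synaptic vesicle protein, was at 0.98 (SE 0.24, adjusted p = 0.00236), SCG3, a granule protein, at 2.01 (adjusted p = 0.000958), and CHGB, another granule protein, at 0.27 (adjusted p = 0.738). Of 4 cholinergic genes tested, PRIMA1 was called higher in PPGLs (1.89, adjusted p = 0.0122) and none lower, the count in group 1 was 1 of 5 and edgeR called 0 of 5 in group 2 and 0 of 3 between groups.

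Of neuronal and neuroblast genes, 7 of 22 were called higher and 3 lower in PPGLs (median 0.41), 11 of 23 and 2 in group 1, 6 and 4 in group 2, and between the groups 4 of 23 were higher in group 1 and 1 lower. RET was higher in PPGLs (3.93, SE 0.67, adjusted p = 5.67e-05), and NTRK3 was lower (-2.94, adjusted p = 0.000291). GAP43 (4.23), STMN4 (3.43) and MAB21L1 (2.21) were higher in PPGLs and NEFL (-2.87) and NEFM (-2.10) lower, while DCX (3.76), ELAVL2 (2.57) and RTN1 (1.22) were called higher in group 1 than in group 2. These rested on fewer tumors than ISL1 did: 2 of 7 group 1 tumors were above every group 2 tumor for DCX, 2 for ELAVL2 and 3 for RTN1, against 6 for ISL1. The DCX median was 0.238 CPM in both groups. For GAP43, 9 tumors were above and 3 below every NAM, with medians of 2.06 CPM in NAMs, 12.0 in group 1 and 3.47 in group 2.

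Markers of the adrenal cortex moved in the same comparisons as the members. Of 11 tested, 10 were called lower in PPGLs (median -3.18), 11 in group 1 (median -8.33), 10 in group 2 (median -2.58) and 10 in group 1 against group 2 (median -6.53), and none was called higher. Their summed level had a median of 37330 CPM in NAMs (14090 to 69000), 274.5 in group 1 (92.0 to 1168) and 3683 in group 2 (255 to 34380). CYP17A1 had the highest median of them in NAMs and group 2, and STAR in group 1 (122 CPM). MC2R, NR0B1 and MRAP had medians of 0 CPM in group 1, and STAR was at 2749 CPM or more in every NAM. NR5A1, the transcription factor of steroid-producing cells, was at -3.28 in PPGLs (adjusted p = 0.00174) and CYP11A1 at -3.43 (adjusted p = 0.00909). NAMs labelled as medulla thus carried cortical transcripts, and the part of these cells in the members' results was not tested.

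With the mean log2 level of the cortex markers as a covariate, PHOX2A came to 2.03 and GATA2 to 2.22 in PPGLs, both called, and HAND1 came to 3.45, not called. Also in PPGLs, HAND2 came to 0.46 and was not called, and ISL1 came to -4.99 and was called lower. In group 2 against NAMs, PHOX2A (1.85), HAND1 (4.81), GATA2 (2.11) and ISL1 (-4.33) were called and HAND2 (0.54) was not. The marker level of the 7 group 1 tumors, -0.50 to 3.49, did not overlap that of NAMs, 8.62 to 10.7, so group and marker level cannot be told apart there, and edgeR called 0 members, with 2 at an unadjusted p below 0.05. Between the tumor groups the covariate left 0 members and 0 genes called, with 0 members and 1509 genes at an unadjusted p below 0.05. DESeq2, without the covariate, called 4 members in group 1 against NAMs and 3 between tumor groups. ISL1 was inversely related to the cortex marker level in group 1 (r = -0.66, rho = -0.54) and weakly in group 2 (r = -0.22, rho = -0.08).

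**Figure D3:**
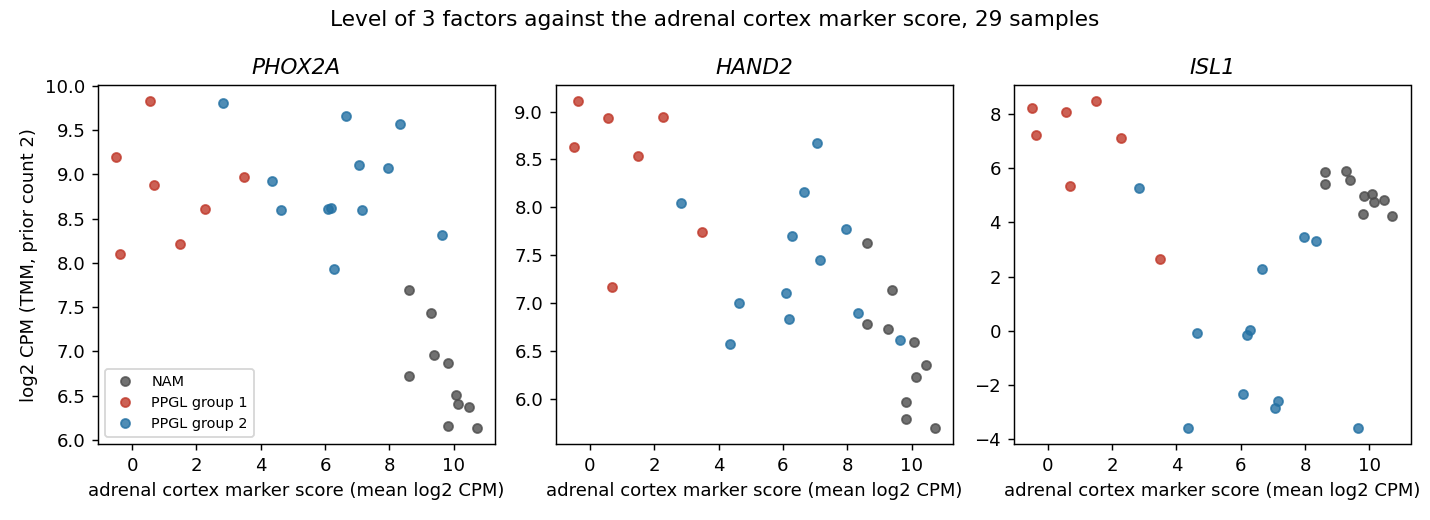
Level of PHOX2A, HAND2 and ISL1 (log2 TMM-normalized CPM, prior count 2) against the mean log2 CPM of the adrenal cortex markers, with 1 point per sample for 10 NAMs, 7 tumors of group 1 and 12 tumors of group 2. Group 1 tumors lie at -0.50 to 3.49 on the horizontal axis and NAMs at 8.62 to 10.7, with group 2 tumors at 2.82 to 9.64.

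Other cell types were followed by their markers, and their part in the members' results was not tested. Of 8 Schwann and sustentacular markers edgeR called 0 in PPGLs, 1 higher in group 1, 1 lower in group 2 and 1, NGFR, higher in group 1 than in group 2 (3.30, adjusted p = 0.0161). NGFR was the most abundant over all samples, though ERBB3 had the higher median in group 2 (14.9 against 11.1 CPM). S100B lay at or under the floor, and the summed medians were 149 CPM in NAMs, 269 in group 1 and 48.8 in group 2. Of 10 endothelial markers 5 were lower in PPGLs, 1 in group 1, 4 in group 2 and 0 between groups, with summed medians of 826, 624.8 and 557 CPM. PECAM1 had the highest median in both tumor groups, and VWF in NAMs (176 against 150 CPM).

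Of 10 fibroblast and smooth muscle markers 5 were higher in PPGLs, 1 higher and 1 lower in group 1, 6 higher in group 2 and 0 between groups, with summed medians of 677, 869 and 1243 CPM. COL3A1 had the highest mean over the tumors, where its highest value was 7931 CPM. COL1A2 had the higher median in NAMs (161 against 90.7 CPM) and in group 2 (309 against 251 CPM). Of 10 leukocyte markers 4 were higher and 1 lower in PPGLs, 1 lower in group 1, 4 higher in group 2 and 0 between groups. Their summed medians were 736, 538 and 494 CPM, CD79A was the most abundant and MS4A1 lay at or under the floor. Of 5 mast cell markers 0 were called in PPGLs, 1 higher in each tumor group against NAMs, and HDC higher in group 1 than in group 2 among 4 tested, where 1 of 7 group 1 tumors was above every group 2 tumor, with KIT the most abundant and summed medians of 30.4, 50.2 and 36.1 CPM.

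GATA2 and GATA3 are also blood cell factors, so markers of that kind stand beside them. Of erythroid markers 3 of 4 were higher in PPGLs, 2 of 5 in group 1, 4 of 5 in group 2, and 1 of 5 was lower in group 1 than in group 2, with summed medians of 1.88, 3.34 and 5.86 CPM. ALAS2 had the highest median in group 2 (2.06 CPM), and HEMGN in NAMs (1.485 CPM) and group 1 (1.225 CPM). GATA1, the erythroid GATA factor, had medians of 0 CPM in NAMs and group 1. Of 3 kidney tubule markers tested, 1 was higher in PPGLs and in each tumor group against NAMs, and 0 were called between groups. Their summed medians were 9.98, 28.7 and 19.0 CPM, and UMOD, SLC12A1, AQP2, CDH16, PAX2, SLC34A1 and KCNJ1 lay at or under the floor.

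Of 10 proliferation markers 9 were higher in PPGLs (median 2.22), 9 in group 1, 6 in group 2 and 7 in group 1 against group 2, and none was lower. TOP2A had the highest median in both tumor groups, and AURKB in NAMs (11.2 against 5.49 CPM). The summed medians were 44.5 CPM in NAMs, 194 in group 1 and 85.0 in group 2. The r of MKI67 with HAND2 was 0.69 in group 1 (rho = 0.75) and -0.14 in group 2 (rho = -0.21), and with ISL1 it was 0.60 (rho = 0.57) and 0.21 (rho = 0.32). HAND1 and MKI67 had r = -0.71 (rho = -0.77) in group 2 and 0.20 in group 1.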

How the data were processed

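The authors deposited raw counts of reads on the exons of each gene, made from single-end 50 bp reads of TruSeq Stranded mRNA libraries aligned to CanFam3.1 with STAR. RNA was extracted with RNeasy and sequenced on a NextSeq2000, and the submitters' notes also name FastQC, Picard and HTSeq. The authors left out 2 PPGLs as outliers. The strand setting and the treatment of reads that map to several places were not given in the sources used here. Genes were filtered with filterByExpr and normalized with TMM in edgeR 4.0.16 under R 4.3.3, and tested with quasi-likelihood F tests and Benjamini-Hochberg adjustment over all genes tested. The comparison of PPGLs with NAMs used 29 samples, that of the tumor groups 19, and those of each tumor group with NAMs were contrasts in 1 fit of 3 groups. Log2 levels used a prior count of 2. The procedure was tested on simulated data. Alternatives were DESeq2 1.42.0, DESeq2 size factors, the Mann-Whitney U-test, other low-count filters and prior counts, a replicate block, the cortex marker level as a covariate, a chromaffin marker scale, fits of other sample sets and each sample left out.

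Named genes were the members, the found ones of 18 reference genes of the lineage and cortex, up to 4 called genes of each list per comparison and direction by size of change (of cell type markers only some are printed), the 3 named genes most correlated with each member, and genes within 50 kb. The members and lists were chosen with earlier results of these data known. The lists were paralogs, partners and cofactors, other neural crest and sympathoadrenal transcription factors, BMP signalling, catecholamine, cholinergic, and neuronal and neuroblast genes, and markers of chromaffin, adrenal cortex, Schwann and sustentacular, endothelial, fibroblast and smooth muscle, leukocyte, mast, kidney tubule and erythroid cells and of proliferation. Some results that the rule takes are not reported here. A planned description of promoter and protein sequences was not made. Figures were drawn with matplotlib 3.10.9.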

Additional observations from a re-analysis of the deposited data

Results flagged for a closer look

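The tumor groups differed for HAND2 and ISL1 in the fit of the tumors alone, without the NAMs. For HAND2 group 1 exceeded group 2 by 1.02 on the log2 scale (edgeR quasi-likelihood, adjusted p = 0.0638). Above every NAM were 6 of 7 group 1 tumors and 5 of 12 group 2 tumors. For ISL1 group 1 exceeded group 2 by 5.02 (adjusted p = 0.0244), with 5 of 7 group 1 tumors above and 11 of 12 group 2 tumors below every NAM. In the 3-group fit, which includes the NAMs, GATA3 was called between the groups as well (2.49, edgeR quasi-likelihood, adjusted p = 0.0286). With the adrenal cortex marker level as a covariate neither difference was called (0.62 for HAND2 and 3.04 for ISL1), and that of HAND2 was not called without group 1 replicate 3 (0.95), 4 (0.945) or 7 (0.92). The threshold was an adjusted p of 0.1, and the tumor groups were drawn from these same data. No NAM or group 1 sample stood apart from its group by Dixon's ratio in any of the 7 factors, in 28 looks at the highest and lowest values.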

How the results depend on the processing

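Of 917 recomputed log2 fold changes of the members, 854 kept their direction and side of the threshold, 23 were no longer called, 15 became called and 25 turned sign. Where a value below differs, the cause was not tested.

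With the cortex marker level as a covariate, 2163 genes were called in PPGLs against NAMs, 12 in group 1 against NAMs, 1061 in group 2 against NAMs and 0 between the groups by edgeR (1509 at an unadjusted p below 0.05), with 0 members in group 1 against NAMs (2 at an unadjusted p below 0.05) and 0 between the groups (0). DESeq2 without it called 1793 genes and 3 members between the groups, and 5838 genes and 4 members in group 1 against NAMs. Under the covariate GATA3 was at -1.84, ISL1 at -4.99 and TFAP2B at -0.26 in PPGLs, ISL1 at -1.40 in group 1 and TFAP2B at -0.13 in group 2.

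On the chromaffin marker scale the median log2 fold change of all genes moved by 0.37 in PPGLs, 1.61 between the groups, 1.15 in group 1 and -0.47 in group 2. Of called genes 69.0%, 98.3%, 94.0% and 30.8% were higher, against 59.5%, 57.3%, 59.9% and 55.9% with TMM. PHOX2A was then at 1.55 and GATA2 at 0.90 between the groups, and TFAP2B at -0.31 in group 2. Counts on this scale were added after seeing the data: 6 members were called between the groups, where 11576 of 14666 genes were called, and 7 in group 1 against NAMs, where 8803 of 15201 were. Sign turns on this scale go with the shift of all genes.

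Between the groups, 2567 genes were called in the 3-group fit and 399 genes and 1 member by the Mann-Whitney U-test. In the equal-weight mean of the tumor groups ISL1 was at -0.22. Without group 1 replicates 3 and 5, chosen after seeing the data, GATA2 was at 0.075 between the groups.

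With the sample number as a replicate block, 47 genes and 0 members (2 at an unadjusted p below 0.05) were called between the groups by edgeR, GATA3 was at -0.46 and ISL1 at -0.80 in PPGLs, and TFAP2B at -0.001 between the groups. HAND1 was then called in none of the comparisons with NAMs, at 1.40 in PPGLs, 1.69 in group 1 and 1.27 in group 2, and HAND2 (1.05) and ISL1 (5.12) were not called between the groups. Equal numbers belong to different animals: 0 of 7 group 1 samples correlated best with their own number in NAMs or in group 2, and 2 of 10 did between group 2 and NAMs.

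Leaving out each sample gave 525 to 1218 genes and 1 to 3 members between the groups, -0.16 to 0.33 for GATA3 in PPGLs, -0.21 to 0.22 for TFAP2B in group 2, and between the groups -0.27 to 0.052 for PHOX2A, -0.053 to 1.22 for HAND1 and -0.53 to 0.081 for GATA2. Depth limits ISL1 most, with 5 group 2 tumors at 3 counts or fewer.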
